A study of Mus musculus with 6 samples.

Results

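The S100 proteins and galectins described here are 9 transcripts in cultured mouse hepatic stellate cells. They were chosen by gene symbol (S100a4, S100a6, S100a8, S100a9, S100a10, S100a11, Lgals1, Lgals3 and Lgals9), from probe sets of the array that name a single gene, with the probe set of the highest mean signal over the 6 arrays where a gene had several. All 9 were found among 22180 genes with such a probe set, and each had 1 probe set, so the highest-mean rule selected nothing. Cells came from young mice of 8 to 11 weeks or old mice of 6 to 9 months, and 5 mice were pooled for a sample. At each age 1 array held quiescent cells plated for 12 h, 1 held cells activated by culture on uncoated plastic for more than 20 days and given vehicle (dimethyl sulfoxide is the solvent named), and 1 held activated cells given 10 µM of C-82, the active compound to which PRI-724 is converted. PRI-724 blocks the binding of beta-catenin to its coactivator CBP, and these samples are called PRI-724. The labels used here name neither the mouse strain nor the exposure time. With 1 array in each of the 6 groups, no spread within a group could be measured, and a comparison of states rests on n = 2 pairs, young and old.

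S100 proteins are small calcium-binding proteins that act inside cells as dimers on partners such as annexins and myosin, and several are released after injury as alarm signals. Galectins are lectins that bind beta-galactoside sugars on glycoproteins, inside the cell and on its surface. S100A4, S100A6, S100A10, S100A11 and galectin-1 are abundant in fibroblast-like cells, whereas S100A8 and S100A9 form the calprotectin dimer of neutrophils and monocytes, and galectin-3 and galectin-9 are known from macrophages among other cells. The first 5 are called mesenchymal and the other 4 myeloid here. This grouping comes from textbook knowledge, and S100a4 and Lgals3 are known from both kinds of cell. The names are labels only, and which cells gave each signal was not tested.

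The 6 S100 members lie on mouse chromosome 3, with S100a4, S100a6, S100a8 and S100a9 among other S100 genes and S100a11 and S100a10 side by side further along. Of the 9 members, 7 had a RefSeq promoter window (GRCm38.p6, 250 bases before to 50 bases after the annotated start). The 250 bases before the start are printed for S100a6 and S100a11, which rose on activation. They are also printed for S100a8 and S100a9, which stayed near the low end of the signal range. These 4 were picked with their values known, so they do not stand for the 2 classes. S100a4, a mesenchymal member of the same chromosome with a window, also stayed low and is not printed. Capitals mark matches, on either strand, to any of 5 motifs. The letters TGANTCA were searched for AP-1, the Fos and Jun dimer. The letters GGGCGG were searched for the GC box, which Sp1-type factors bind. The TATA box of core promoters was searched as TATAAA. The site of TCF/LEF factors, the DNA-binding partners of beta-catenin, was searched as ATCAAAG. The site of C/EBP factors, known from myeloid genes, was searched as TTNNGCAA. No 2 matches overlap.
S100a6, chr3:90612644-90612893, plus strand: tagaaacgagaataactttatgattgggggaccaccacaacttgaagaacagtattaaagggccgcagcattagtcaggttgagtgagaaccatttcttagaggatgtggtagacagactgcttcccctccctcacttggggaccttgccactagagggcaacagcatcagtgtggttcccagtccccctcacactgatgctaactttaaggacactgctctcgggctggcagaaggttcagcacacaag
S100a11, chr3:93520246-93520495, plus strand: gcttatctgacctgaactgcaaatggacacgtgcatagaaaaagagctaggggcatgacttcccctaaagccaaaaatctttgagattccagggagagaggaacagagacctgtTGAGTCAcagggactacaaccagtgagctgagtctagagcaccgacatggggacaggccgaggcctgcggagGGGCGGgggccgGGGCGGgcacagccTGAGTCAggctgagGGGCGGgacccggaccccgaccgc
S100a8, chr3:90668821-90669070, plus strand: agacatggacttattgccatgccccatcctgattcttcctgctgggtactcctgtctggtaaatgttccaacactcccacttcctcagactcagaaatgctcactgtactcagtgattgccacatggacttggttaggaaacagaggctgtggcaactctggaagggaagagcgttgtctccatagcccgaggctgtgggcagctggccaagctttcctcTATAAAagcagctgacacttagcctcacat
S100a9, chr3:90695722-90695971, minus strand: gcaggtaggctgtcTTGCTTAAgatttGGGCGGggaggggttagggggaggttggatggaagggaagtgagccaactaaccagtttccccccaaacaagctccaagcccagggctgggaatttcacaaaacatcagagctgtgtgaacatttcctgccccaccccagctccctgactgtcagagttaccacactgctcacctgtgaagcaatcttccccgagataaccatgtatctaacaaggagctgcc

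The S100a11 window held 2 AP-1 matches, 136 and 38 bases before the start, and 3 GC boxes, 64, 52 and 24 bases before it. The S100a6 window held no match to any of the 5 motifs. A TATA box stood 30 bases before the start of S100a8 and 31 bases before that of S100a4. In S100a9 the letters TATAAA began at base 1 after the annotated start, just outside the printed stretch, and a C/EBP match lay 236 bases before the start. S100a9 also held a GC box 223 bases before its start. Lgals3 held GC boxes 7 bases before its start and at base 5 after it. Of 32851 windows of the same 300 bases, 7.81% held an AP-1 match, 35.7% a GC box, 13.6% a TATA box, 10.8% a C/EBP match and 3.73% a TCF/LEF match. No member window held the TCF/LEF letters. These are matches of letters and not shown binding sites.

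On the arrays the 9 members fell into a wide range of signal. As a description of low signal, the 1088 olfactory receptor genes of the array, which liver cells are not known to use, had a 95th percentile between 5.05 and 5.88 log2 units on the 6 arrays. This reference was picked after the values were seen, and probe sets differ in their response, so it orients only. S100a6, S100a10, S100a11, Lgals1, Lgals3 and Lgals9 lay above that percentile on all 6 arrays. S100a4 lay above it on 0, S100a8 on 1 and S100a9 on 2. The young PRI-724 array had the narrowest spread of signal, with an interquartile range of 1.71 log2 units over the tested genes against 2.11 to 2.43 on the other 5, and the members' differences that use it are also given without it.

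**Figure D1:**
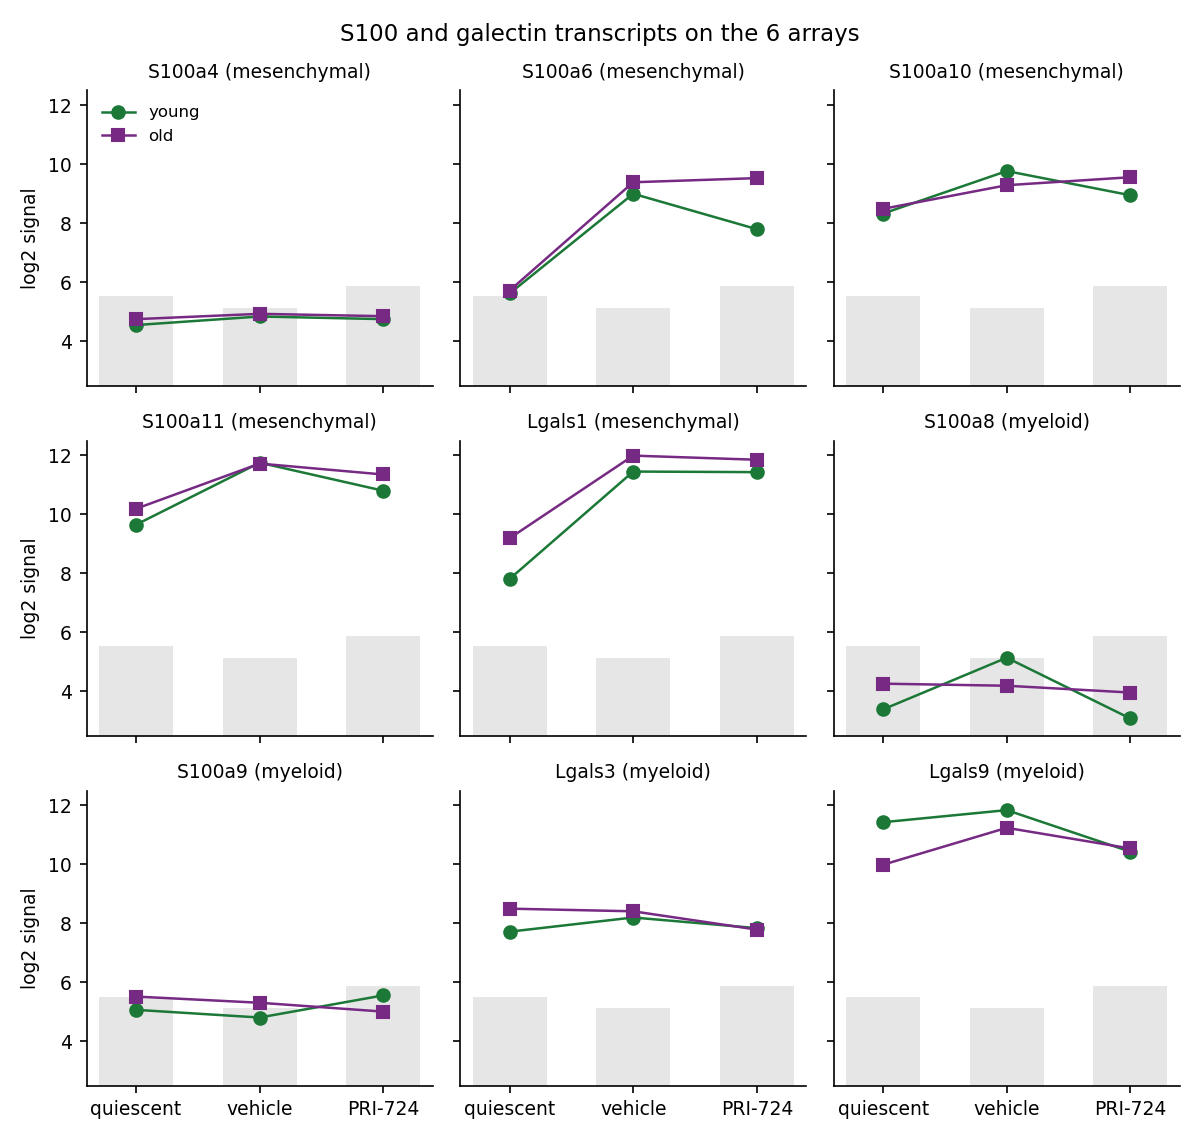
Log2 signal of each member (vertical axis) in the 3 states (horizontal axis), with circles for young and squares for old cells and 1 array per point. Grey bars reach up to the higher of the 2 ages' 95th percentile of olfactory receptor genes in that state. S100a6, S100a11 and Lgals1 climbed from quiescent to vehicle at both ages, while S100a4 and S100a9 varied by 0.37 and 0.75 log2 units over all 6 arrays.

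The question of the first comparison was how the family changed when quiescent stellate cells became activated in culture. Lgals1, S100a6 and S100a11 rose, and all 3 belong to the mesenchymal members. Of the 8 members with enough signal to be tested 3 rose and 0 fell (limma, adjusted p of 0.05), against 4.61% of all 15526 tested genes that rose and 1.26% that fell. The 5 mesenchymal members had a median difference of 1.82 log2 units and the 3 tested myeloid members one of 0.19, beside 0.04 over all tested genes. Members are not replicates, so the difference between the 2 classes was not tested, and because the members were chosen with results of these arrays known, the counts are a description.

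Lgals1 encodes galectin-1, a secreted dimer that crosslinks glycoproteins of the cell surface and matrix. Its log2 signal was 7.81 in young and 9.19 in old quiescent cells and 11.45 and 11.99 in the vehicle cells. Both vehicle arrays lay above both quiescent arrays. It rose by 3.22 ± 0.25 log2 units (SE, n = 2 pairs), or 9.33-fold (limma, adjusted p = 0.00264), with 3.64 for young and 2.80 for old cells, the 15th highest difference among 15526 genes.

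S100a6 encodes calcyclin, a calcium sensor of growing fibroblasts and muscle-like cells. Its log2 signal was 5.62 and 5.72 in young and old quiescent cells, close to the upper end of the olfactory receptor genes, and 9.00 and 9.39 in the vehicle cells. The ages were near each other in both states. It rose by 3.53 ± 0.39, or 11.5-fold (adjusted p = 0.00408), the 7th highest difference.

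S100a11 encodes calgizzarin, which binds annexin A1. Its log2 signal was 9.65 and 10.19 in quiescent and 11.75 and 11.72 in vehicle cells, young first. It rose by 1.82 ± 0.21, or 3.53-fold (adjusted p = 0.00408). The array also has a probe set for S100a11-ps, a pseudogene named after S100a11, which stood at 6.09 and 6.15 in quiescent and 7.72 and 7.12 in vehicle cells. How far the 2 transcripts share signal cannot be told apart here, so the S100a11 values are uncertain to that extent. Lgals1, S100a6 and S100a11 passed the threshold under all 14 alternative settings, with adjusted p up to 0.0419.

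S100a10 encodes p11, the S100 protein that has lost calcium sensing and tethers annexin A2 to membranes. Its log2 signal was 8.33 and 8.49 in quiescent and 9.77 and 9.29 in vehicle cells. The 2 states did not overlap, but the difference of 1.12 ± 0.30 had an adjusted p of 0.0612. It passed without the old vehicle array, at 1.55 (adjusted p = 0.0146, and 0.0146 to 0.82 over the 14 alternatives). Without the young vehicle array it was 0.69 (adjusted p = 0.82).

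S100a4, also called fibroblast-specific protein 1, is widely used as a fibroblast marker and binds non-muscle myosin. Its signal was 4.55 and 4.75 in quiescent, 4.84 and 4.93 in vehicle and 4.75 and 4.85 in PRI-724 cells. All 6 values lay below the olfactory receptor percentile named above, and the whole range was 0.37. The activation difference was 0.23 ± 0.24 (adjusted p = 0.613, 95% interval -0.30 to 0.77). Its mean of 4.78 was just above the limit of 4.70 for testing.

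The myeloid members did not pass the threshold on activation. Lgals9, whose protein carries a pair of sugar-binding domains, had log2 signals of 11.43 and 9.99 in young and old quiescent cells and 11.84 and 11.24 in vehicle cells. The young quiescent value lay above the old vehicle value, so the states overlapped. The difference was 0.83 ± 0.31 (adjusted p = 0.145). Without the young quiescent array it was 1.43 (adjusted p = 4.54e-05, and up to 0.887 over the 14 alternatives), and without the old quiescent array it was 0.23 (adjusted p = 0.887). Lgals3, encoding the chimera-type galectin-3, had 7.72 and 8.50 in quiescent and 8.20 and 8.41 in vehicle cells, a difference of 0.19 ± 0.30 (adjusted p = 0.753) whose sign turned after cyclic loess and quantile normalization.

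S100a8 and S100a9 had low signals throughout. S100a8 had 3.39 and 4.26 in quiescent, 5.14 and 4.19 in vehicle and 3.08 and 3.96 in PRI-724 cells, young first. The young vehicle array was the highest, and the mean of 4.0 was under the limit, so S100a8 was not tested. With no limit on signal its activation difference of 0.84 had an adjusted p of 0.29. S100a9 had 5.07 and 5.52 in quiescent, 4.81 and 5.31 in vehicle and 5.56 and 5.01 in PRI-724 cells. The states overlapped fully, and the activation difference was -0.24 ± 0.30 (adjusted p = 0.694).

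Markers of the other cell types bear on these values, and in bulk samples fewer cells of a type and less RNA per cell cannot be told apart. Of 16 neutrophil markers, 11 to 15 were not above the olfactory receptor percentile on each array, and the list's mean level was 4.55 to 4.95 log2 units. Ly6g, Camp, Ngp and Retnlg, which define neutrophils, had means of 3.97, 3.77, 4.29 and 3.11. Lcn2, which many injured cells also make, reached 10.29 on the young vehicle array, the array with the highest S100a8. Macrophage or Kupffer cell markers were well expressed in the quiescent and vehicle samples, with list means of 8.37 to 9.23, so the labelled stellate cell samples held macrophage transcripts. On activation 1 of these 14 rose and 0 fell, with a median of -0.06, and 0 of 8 markers of all leukocytes rose or fell. The macrophage median was 0.36 for young and -0.47 for old cells, and -0.48 to 0.35 with 1 array left out. After cyclic loess or quantile normalization 0 of the 14 rose. Of 7 monocyte markers on the array, 4 to 6 were not above the olfactory receptor percentile on each array. Among the 5 tested 1, Fn1, rose and 0 fell, with a median of 0.49. Fn1 had a mean log2 signal of 10.07, where the others of the list had 3.67 to 6.60. Which cells gave the Fn1 signal was not tested, so its rise is not read as one of monocytes. The list of 10 stellate cell markers averaged 7.94 to 8.86 on the 6 arrays. Its 4 brightest genes, Dcn, Ecm1, Reln and Pdgfra, had mean log2 signals of 12.14, 10.66, 9.81 and 9.31, while Lrat, Ngfr and Colec11 had 6.92, 6.14 and 5.92. On activation 4 of the 10 rose and 1, Colec11, fell. On the young PRI-724 array 2 of the 10 were not above the olfactory receptor percentile. Sinusoidal endothelial markers were also well expressed, with list means of 8.79 to 10.12 in the quiescent and vehicle samples, and 2 of 9 rose on activation (1 to 3 with any 1 array left out). Of 9 activated stellate cell markers 6 rose and 0 fell on activation, with a median of 2.58 (2.15 to 3.07 with 1 array left out). Of 9 hepatocyte markers 0 rose and 3 fell. Their median was -1.90, with -1.07 for young and -2.33 for old cells, and -2.40 to -0.74 with 1 array left out. With age left out of the model 1 activated stellate cell marker rose and 0 hepatocyte markers fell. Of 7 mesothelial markers 3 rose and 0 fell, with a median of 1.17, namely Upk1b (2.48), Lrrn4 (2.06) and Gpm6a (1.24), and 2 or 3 rose with any 1 array left out. The part of these cells in the members' values was not tested.

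**Figure D2:**
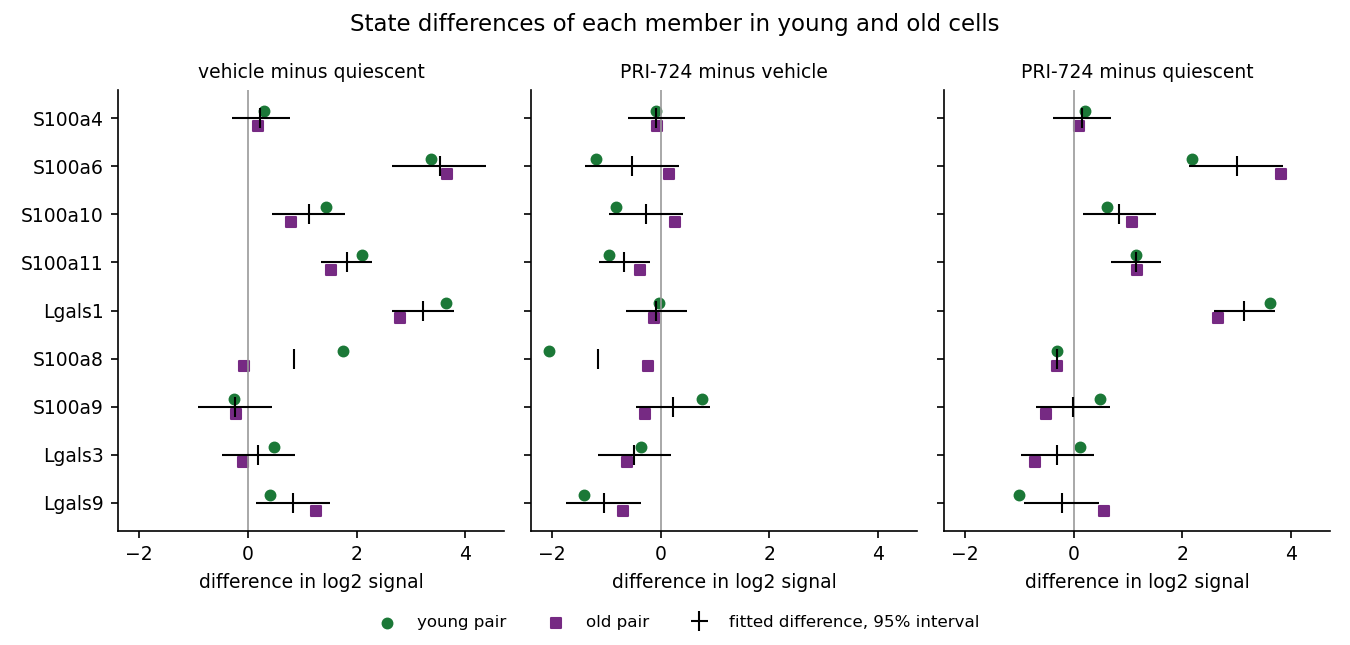
Difference in log2 signal (horizontal axis) of each member for the 3 state comparisons, with circles for the young pair, squares for the old pair, and vertical ticks for the fitted difference with its 95% interval from limma. S100a8 was not tested and its tick is the mean of the 2 pairs. S100a6, S100a11 and Lgals1 lie to the right of 0 in both comparisons with quiescent cells, and none of the 8 tested members passed the threshold for PRI-724 minus vehicle.

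The next question was how the members differed between treated and untreated activated cells. Of the 8 tested members 0 rose and 0 fell (limma, adjusted p of 0.05), against 0.271% of all tested genes that rose and 1.93% that fell. With an unadjusted p under 0.05 there were 2404 genes over the whole table, among them S100a11 and Lgals9. The mesenchymal members had a median difference of -0.27 and the tested myeloid members one of -0.49, beside -0.05 over all tested genes.

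Lgals1 stayed close to its vehicle level at both ages. It had 11.43 in young and 11.85 in old PRI-724 cells, which are -0.03 and -0.13 from the vehicle arrays. The fitted difference was -0.08 ± 0.25 with a 95% interval of -0.65 to 0.48 (adjusted p = 0.909), so changes of up to those sizes were within the error.

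Lgals9 was lower on both PRI-724 arrays, at 10.43 and 10.54, than on both vehicle arrays. The pairs differed by -1.41 in young and -0.70 in old cells, and the fitted difference was -1.05 ± 0.31, or 2.08-fold (adjusted p = 0.128). It passed the threshold under 3 alternatives, those without the young, the old or both quiescent arrays. These rest on the same vehicle and PRI-724 arrays, so they repeat 1 result. They leave the difference at -1.05 and change only its error. Over the 14 alternatives the adjusted p reached 0.904. Lgals3 had 7.84 and 7.79 in PRI-724 cells, a difference of -0.49 ± 0.30 (adjusted p = 0.47).

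S100a11 was also lower on both PRI-724 arrays, at 10.80 and 11.35. The pairs differed by -0.96 and -0.38, and the fitted difference was -0.67 ± 0.21 (adjusted p = 0.158). It too passed under 3 alternatives, those without the young, the old or both quiescent arrays, which repeat 1 result. Its adjusted p reached 1 over the 14 alternatives.

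S100a6 and S100a10 differed in sign between the ages. S100a6 had 7.80 on the young and 9.53 on the old PRI-724 array, which are -1.20 and 0.15 from the vehicle arrays, and a fitted difference of -0.53 ± 0.39 (adjusted p = 0.549). S100a10 had 8.95 and 9.56, which are -0.82 and 0.27 from the vehicle arrays, and -0.27 ± 0.30 (adjusted p = 0.687). The negative differences lie in the young pair, which holds the array with the narrowest spread of signal. The part of that array in the differences was not tested. Without that array the differences were 0.22 for S100a6 and 0.11 for S100a10. The same array left out gave -0.35 for Lgals1, -0.49 for Lgals9, -0.76 for Lgals3 and -0.52 for S100a11. An age difference of a response cannot be tested with 1 array per group.

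S100a4 and S100a9 stood within their error of 0, at -0.08 ± 0.24 and 0.22 ± 0.30 (adjusted p = 0.902 and 0.756), and S100a9 was 0.75 for young and -0.30 for old cells. S100a8 differed by -2.06 for young and -0.23 for old cells and was not tested. With no limit on signal its difference of -1.15 had an adjusted p of 0.247. With the young PRI-724 array dropped, S100a4 stood at -0.10 and S100a9 at -0.29.

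Beside these values, markers of macrophages and of sinusoidal endothelium fell. Of 14 macrophage or Kupffer cell markers 11 fell, and the mean level of the list went from 8.80 to 5.89 in young and from 8.65 to 6.16 in old cells. On the young PRI-724 array 9 of the 14 markers, and on the old one 4, were not above the olfactory receptor percentile. Of 8 markers of all leukocytes 7 fell, and of 9 sinusoidal endothelial markers 9 fell. Without the young PRI-724 array 0 genes of the whole table passed in this comparison, these markers included, while the median of the macrophage list was -2.61 against -2.63 with all arrays, that of the leukocyte list -2.17 against -2.23 and that of the endothelial list -2.17 against -3.30. Without the old PRI-724 array 3 macrophage, 5 leukocyte and 8 endothelial markers fell. The median PRI-724 minus vehicle difference of the macrophage list was -2.81 for young and -2.29 for old cells, where Lgals9 had -1.41 and -0.70 and Lgals3 -0.36 and -0.62. Of 9 activated stellate cell markers 1, Myl9, fell. The list's median was -1.30, with -2.30 for young and -0.52 for old cells, and all 9 fitted differences were below 0. Without the young PRI-724 array the median was -0.53, and 0 to 6 of the 9 fell with 1 array left out. The mesothelial list had a median of -0.16 with 0 of 7 rising or falling. The neutrophil list had a median of 0.18 with 0 of 8 tested genes rising or falling, and the monocyte list -0.27 with 0 of 5. The part of these cells in the members' signals was not tested.

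**Figure D3:**
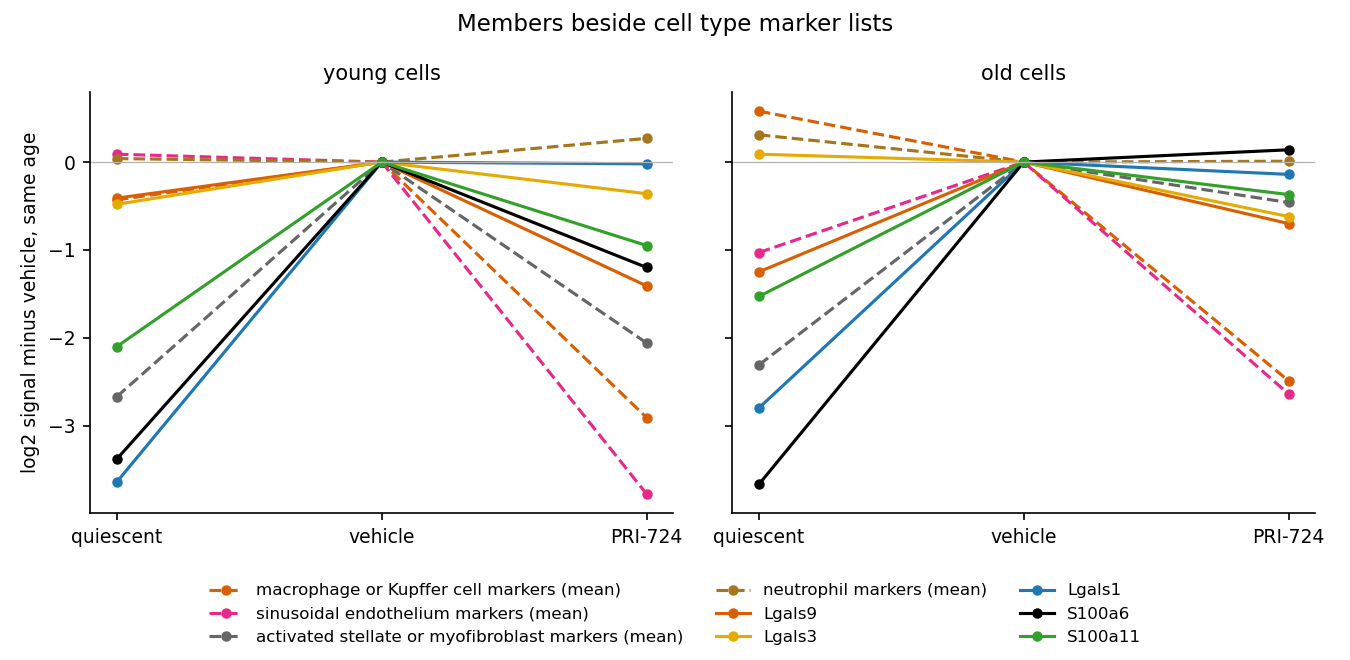
Log2 signal minus the vehicle array of the same age (vertical axis) in the 3 states, for 5 members as solid lines and the mean of 4 marker lists as dashed lines, young cells on the left and old cells on the right. From vehicle to PRI-724 the macrophage and sinusoidal endothelial lists dropped further than any of the 5 members drawn, and Lgals1 stayed within 0.13 of its vehicle value at both ages.

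PRI-724-treated cells were then set against quiescent cells. This comparison shares its arrays with the other 2, so the values stand side by side and are not independent. Lgals1, S100a6 and S100a11 rose, 3 of 8 tested members against 1.28% of all tested genes, and 0 fell against 2.43%. Lgals1 rose by 3.14 ± 0.25, or 8.82-fold (adjusted p = 0.000756), the 5th highest difference of 15526. S100a6 rose by 3.0 ± 0.39 (adjusted p = 0.00274), with 2.18 for young and 3.81 for old cells. S100a11 rose by 1.15 ± 0.21 (adjusted p = 0.0155), with 1.14 and 1.16. All 3 lost the call without the young PRI-724 array, when 0 genes of the whole table passed, at adjusted p of 0.107 for Lgals1, 0.107 for S100a6 and 0.174 for S100a11. Without the old PRI-724 array they were at adjusted p of 0.0508, 0.0552 and 0.19. S100a11 also missed the threshold with no intensity trend (adjusted p = 0.0522) and with age left out of the model (adjusted p = 0.1). Over all 14 alternatives the adjusted p reached 0.107 for Lgals1 and S100a6 and 0.19 for S100a11. S100a10 stood at 0.84 ± 0.30 (adjusted p = 0.186) and S100a4 at 0.15 ± 0.24 (adjusted p = 0.868). With the young PRI-724 array dropped the differences were 2.88 for Lgals1, 3.74 for S100a6, 1.30 for S100a11, 1.23 for S100a10 and 0.13 for S100a4. Of 9 activated stellate cell markers 3 rose and 0 fell, with a median of 0.97. That median was 0.28 without the old and 1.26 without the young PRI-724 array. Of 10 stellate cell markers 1 rose and 1 fell. Of 9 sinusoidal endothelial markers 7 fell, and of 8 markers of all leukocytes 7 fell, with medians of -2.80 and -2.16. The part of these cells in the members' differences was not tested. Of the mesothelial markers Upk1b (2.93) and Lrrn4 (1.74) rose in this comparison, 0 of 7 without the young PRI-724 array, and their part in these values was not tested.

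The myeloid members were near their quiescent levels on average. Lgals9 stood at -0.22 ± 0.31 (adjusted p = 0.84), made of -1.0 for young and 0.56 for old cells. Without the old quiescent array it passed, at -0.83 (adjusted p = 0.0267, and up to 1 over the 14 alternatives). Lgals3 stood at -0.30 ± 0.30 (adjusted p = 0.745) and S100a9 at -0.02 ± 0.30 (adjusted p = 0.991). With the young PRI-724 array dropped, Lgals9 stood at 0.34, Lgals3 at -0.57 and S100a9 at -0.53. Over the same arrays 12 of 14 macrophage or Kupffer cell markers fell, with a median of -2.61, and 0 and 2 fell without the young and the old PRI-724 array.

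Old and young cells were compared over the 3 states. Of the 8 tested members 0 were higher and 0 lower in old cells (limma, adjusted p of 0.05), against 0.264% and 0.251% of all tested genes, and 1615 genes of the table had an unadjusted p under 0.05. Over all tested genes 41 were called higher and 39 lower in old cells. After cyclic loess these were 2 and 5, and after quantile normalization 4 and 8. Lgals1 was higher in old cells in all 3 states, by 1.38 in quiescent, 0.53 in vehicle and 0.43 in PRI-724 cells, which gave 0.78 ± 0.21 (n = 3 states, adjusted p = 0.186). Without the young vehicle array it was 0.90, and the fit without the old vehicle array rests on the same quiescent and PRI-724 pairs. It passed under 1 of 13 alternatives (adjusted p up to 0.992). S100a6 was higher in old cells in each state too, by 0.10, 0.38 and 1.73, with 0.74 ± 0.32 (adjusted p = 0.456). Lgals9 differed by -1.44 in the quiescent, -0.59 in the vehicle and 0.11 in the PRI-724 state, with -0.64 ± 0.25 (adjusted p = 0.416). The other 5 tested members stood between 0.09 and 0.35. Without the young PRI-724 array Lgals1 stood at 0.95, S100a6 at 0.24 and Lgals9 at -1.02, and the other 5 between -0.16 and 0.49. Hepatocyte markers moved with age, with 5 of 9 higher in old cells and a median of 2.31 (0 of 9 and 2.84 without either PRI-724 array). All 9 activated stellate cell markers had fitted differences above 0, with a median of 0.90 and a lowest value of 0.41, and 1, Tagln, was called higher in old cells. With 1 array left out 0 to 4 of the 9 were called, and the median was 0.39 to 1.23. Of 9 sinusoidal endothelial markers 0 were called, with a median of -0.40 (0.18 without either quiescent array). Their median was -1.47 in the quiescent and -0.40 in the vehicle state. Their mean level in PRI-724 cells was 6.25 for young and 7.18 for old. Of 14 macrophage or Kupffer cell markers 0 were called, with a median of 0.37. Their median was 0.65 in the quiescent state, where Lgals9 had the opposite sign, and -0.10 in the vehicle state. The part of these cells in the age values was not tested.

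Protein partners of the members were described from a list of 13 genes, of which 12 were on the array and all 12 were tested. On activation 3 rose and 0 fell. Anxa2, the partner of S100A10, had 7.74 and 8.19 in quiescent and 10.12 and 10.09 in vehicle cells and rose by 2.14 ± 0.25 (adjusted p = 0.00408). Anxa1, the partner of S100A11, had 8.44 and 7.04 in quiescent and 11.02 and 10.53 in vehicle cells and rose by 3.04 ± 0.49 (adjusted p = 0.00985). Anxa3 rose by 2.35 ± 0.34 (adjusted p = 0.00764). Anxa1 and Anxa2 passed under all 14 alternatives, and Anxa3 under 10, missing the threshold without either PRI-724 array among others (adjusted p up to 0.0782). Anxa6 and Ahnak, a scaffold bound by the S100A10 and annexin A2 complex, stood at 1.36 ± 0.35 and 1.09 ± 0.28 (adjusted p = 0.0529 and 0.0518), and Myh9, the myosin heavy chain bound by S100A4, at 0.36 ± 0.17.

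With PRI-724 0 of the 12 partners rose or fell against vehicle. Anxa2 stood at 9.69 and 10.16 on the PRI-724 arrays, a difference of -0.18 ± 0.25 (adjusted p = 0.769). Anxa1 stood at 8.71 and 9.93, and its difference of -1.46 ± 0.49 had an adjusted p of 0.189. Against quiescent cells Anxa2 rose by 1.96 ± 0.25 (adjusted p = 0.00274), Anxa3 by 1.66 ± 0.34 (adjusted p = 0.0284) and Ahnak by 1.73 ± 0.28 (adjusted p = 0.00948). All 3 missed the threshold without the young and without the old PRI-724 array, with adjusted p up to 0.107 for Anxa2 and Ahnak and 0.24 for Anxa3 over the 14 alternatives.

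**Figure D4:**
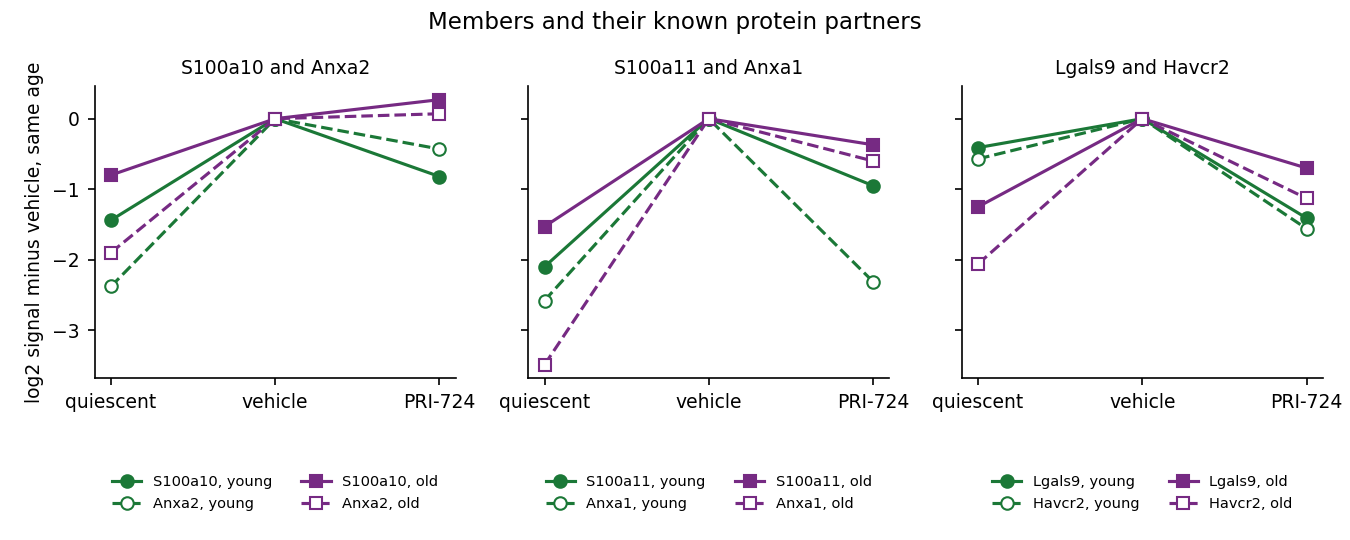
Log2 signal minus the vehicle array of the same age (vertical axis) of S100a10, S100a11 and Lgals9 as solid lines and of a known protein partner of each as dashed lines, in the 3 states, with circles for young and squares for old cells and 1 array per point. Anxa2 and Anxa1 climbed from quiescent to vehicle at both ages. Havcr2, which encodes the galectin-9 receptor TIM-3, had an activation difference of 1.32 with an adjusted p of 0.0928.

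Of the 12 listed receptors 3 rose on activation and 4 fell with PRI-724. Bsg, encoding basigin, a surface receptor reported to bind S100A9, rose by 1.10 ± 0.26 (adjusted p = 0.0383) on activation, Mrc2, a collagen uptake receptor, by 1.03 ± 0.26 (adjusted p = 0.0489), and Mcam, an adhesion molecule, by 1.58 ± 0.36 (adjusted p = 0.0335). These calls are weak, since Bsg passed under 6, Mrc2 under 2 and Mcam under 9 of the 14 alternatives (adjusted p up to 0.529, 0.554 and 0.276). With PRI-724 Cd36, a scavenger receptor, fell by 3.74 ± 0.41 (adjusted p = 0.00248), Itgb2, the leukocyte integrin chain, by 3.24 ± 0.32 (adjusted p = 0.00171), Itgam, its partner chain in myeloid cells, by 2.05 ± 0.44 (adjusted p = 0.0458) and Mcam by 1.73 ± 0.36 (adjusted p = 0.0396). Cd36 and Itgb2 missed the threshold only without the young PRI-724 array among the 14 alternatives (adjusted p = 0.302 and 0.226), whereas Itgam passed under 6 and Mcam under 9 of them (adjusted p up to 0.678 and 0.519). Markers of macrophages, of all leukocytes (a list that itself holds Itgb2) and of sinusoidal endothelium fell on the same arrays, and their part in the receptor values was not tested. Ager, the receptor RAGE, and Tlr4, both receptors of S100A8 and S100A9, stood at 0.35 ± 0.26 and -1.13 ± 0.32 (adjusted p = 0.56 and 0.115) with PRI-724.

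The relatives gave few calls. Of 10 other S100 genes 7 were tested, and S100a13, which helps export growth factors, rose on activation by 1.51 ± 0.37 (adjusted p = 0.0442), with 6.47 and 6.05 in quiescent and 7.67 and 7.87 in vehicle cells. It passed under 6 of 14 alternatives (adjusted p up to 0.402). With PRI-724 it stood at 5.99 and 7.19. S100a1, a regulator of muscle calcium handling, stood at 0.93 ± 0.32 (adjusted p = 0.121). On chromosome 3 the order of coding genes is S100a4, S100a5, S100a6, S100a7a, S100a8 and S100a9. S100a6 rose on activation, while S100a7a stood at 0.91 ± 0.38 (adjusted p = 0.195), S100a4 and S100a9 are given above, and S100a5, with a mean of 3.46, was not tested. S100a11 and S100a10 are neighbours further along the chromosome.

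Of 8 listed genes, 7 other galectin genes or relatives and the ligand gene Lgals3bp, 7 were on the array and 5 were tested. Lgalsl, a galectin-related protein, rose on activation by 0.99 ± 0.25 (adjusted p = 0.0476), a call that held under 2 of 14 alternatives (adjusted p up to 0.573). Lgals8, with a mean log2 signal of 9.56, stood at -0.34 ± 0.24 (adjusted p = 0.45) on activation and -0.05 ± 0.24 (adjusted p = 0.944) with PRI-724. Lgals3bp, a secreted glycoprotein that binds galectin-3, differed by -1.01 ± 0.18 between old and young cells (adjusted p = 0.044), with 11.65 against 10.38 in quiescent, 11.78 against 10.62 in vehicle and 10.64 against 10.05 in PRI-724 cells, young first. It passed under 4 of 13 alternatives (adjusted p up to 0.992).

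The genes most like each member were taken as those with the smallest root mean square (RMS) difference between log2 profiles over the 6 arrays, each centred on its own mean, among 14201 named tested genes. Arrays are shared and only 6, so this is a description. For Lgals1 these were Vgll3, a cofactor of TEAD transcription factors (RMS 0.24), Timp2, an inhibitor of matrix proteases (0.32), and Qpct (0.37). For S100a6 they were Vgll3 (0.36), the tubulin gene Tuba1a (0.38) and Tspan6, a tetraspanin (0.41). Vgll3 had 5.93 and 6.77 in quiescent, 9.19 and 9.72 in vehicle and 8.82 and 9.83 in PRI-724 cells. For Lgals9 they were Rnf122 (0.15), the collagen prolyl hydroxylase subunit gene P4ha1 (0.15) and Ube2l6, an enzyme of the ISG15 pathway (0.17). For S100a11 the nearest was Ttc12 (0.11), for S100a10 Trappc1 (0.06) and for Lgals3 Rnf157 (0.09). S100a4 and S100a9 vary so little that their nearest genes, Dync2h1 (0.04) and Rnf43 (0.05), vary as little.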

How the data were processed

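Transcript levels were measured on 6 Affymetrix arrays, 1 per group, in pooled mouse cells. Per the labels, RNA was prepared with RNeasy columns and the WT PLUS labelling kit. The deposited values are log2 signals made with Affymetrix Expression Console and RMA, per the submitters' processing notes, with versions not given in the sources used here.

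All further values were computed from these. The platform table gave 1 gene for 23521 of 41345 probe sets, several for 1814 and none for 16010. The probe set of highest mean stood for each of 22180 genes. The 30% of genes with the lowest mean (under 4.70) were left out, leaving 15526. Differences were fitted with limma 3.58.1 (R 4.3.3) on age and state with an intensity trend (2 residual and 7.76 prior degrees of freedom), with Benjamini-Hochberg adjustment over all tested genes at 0.05. SE and intervals come from that fit. It was also run on simulated data with independent noise and no link of spread to signal. That run does not check the intervals for these arrays. P-values measure the disagreement between ages (or states), pooled over genes. The number of arrays limits the precision. Named genes were the 9 members, every listed relative, partner and receptor past the threshold with up to 4 more per list of highest mean signal, up to 4 genes of highest mean per marker list, and 3 nearest genes per member. Ly6g, Camp, Ngp, Retnlg, Lrat, Ngfr, Colec11, Lrrn4, Myl9, Ager, Havcr2, S100a5, S100a11-ps and the olfactory receptor reference fall outside that rule and were named after their values were seen. The 9 members, the lists and the tests were chosen with earlier results of these data known. Alternatives changed the filter, probe set rule, trend, model and scaling, or left out 1 array. Their use on the related and marker lists was added after seeing the data. Promoter sequences are RefSeq's (GRCm38.p6). Figures used Python 3.11.15, pandas 2.3.3 and matplotlib 3.10.9.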

Additional observations from a re-analysis of the deposited data

Results flagged for a closer look

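For 7 results the young and the old pair had opposite signs, and with 1 array per group the difference between the ages was not tested. For vehicle minus quiescent, Lgals3 had 0.48 for young and -0.09 for old cells, an old minus young gap of -0.57. For PRI-724 minus vehicle the gap was 1.35 for S100a6 (-1.20 and 0.15), 1.09 for S100a10 (-0.82 and 0.27) and -1.05 for S100a9 (0.75 and -0.30). For PRI-724 minus quiescent it was -1.0 for S100a9 (0.48 and -0.52), -0.83 for Lgals3 (0.12 and -0.71) and 1.56 for Lgals9 (-1.0 and 0.56). Outside the 9 members, the probe set of the pseudogene S100a11-ps was higher in vehicle than in quiescent cells by 1.63 for young and 0.98 for old cells, a mean of 1.31.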

How the results depend on the processing

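Of 436 member differences under the alternatives, 394 kept their direction and side of the threshold, 24 reversed, 10 newly passed and 8 no longer passed. The number of members called with PRI-724 against vehicle was 2 with only the compared arrays in the fit and 0 to 2 with an array left out, against quiescent 0 to 4, and for age 0 to 1. Genes called on activation numbered 114 with no second factor, 481 with only the compared arrays, 482 after cyclic loess, 331 after quantile normalization and 318 to 1230 with an array left out. For PRI-724 minus vehicle these were 91, 965, 103, 84 and 0 to 968. For PRI-724 minus quiescent they were 217 with no second factor, 1064 with only the compared arrays and 0 to 1053 with an array left out. For age they were 0 with no second factor, 7 after cyclic loess, 12 after quantile normalization and 0 to 343 with an array left out. Reversed by scaling were Lgals3 on activation (-0.00 after cyclic loess, -0.01 after quantile normalization), Lgals1 for PRI-724 minus vehicle (0.02 after quantile normalization) and S100a10 for age (-0.03 after cyclic loess). With an array left out, activation differences ran from -0.51 to 0.04 for S100a9 and -0.16 to 0.54 for Lgals3. PRI-724 minus vehicle ran from -1.27 to 0.22 for S100a6, -0.70 to 0.16 for S100a10, -0.35 to 0.18 for Lgals1 and -0.29 to 0.73 for S100a9. PRI-724 minus quiescent ran from -0.53 to 0.50 for S100a9, -0.65 to 0.05 for Lgals3 and -0.83 to 0.38 for Lgals9. Age ran from -0.16 to 0.38 for S100a10 and -0.05 to 0.47 for S100a9. The cause was not tested. Where an array is left out, the lone array of a group is assumed to vary like the others. The age pairs are part of the fit, and no second factor is the fit without them. The labels carry no replicate numbers, so none served as a block. With 1 array per group, signals near the low end give no order between states.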
